A study of Sus scrofa with 48 samples.

Results

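The extracellular matrix of pig perirenal adipose tissue (PRAT), a visceral depot that lies against the kidneys, was described here through the genes of collagens, laminins, fibulins and 14 further matrix proteins that were named one by one. Members were taken by name alone, as probes whose gene name started with COL, LAMA, LAMB, LAMC or FBLN followed by a digit, or was FN1, SPARC, LOX, LOXL1, LOXL2, FBN1, DCN, LUM, BGN, POSTN, THBS1, THBS2, TNC or ELN. This gave 151 of the 60306 probes on the array, for 58 genes. The name rule itself used no expression value, although the set was proposed with earlier results of these data known. No probe carried the names LOXL1, LOXL2, THBS2 or ELN. Each gene was represented by its brightest probe. In the authors' filtered table of 38142 probes, 124 of the 151 probes were kept and 45 of the 58 genes had their representative probe kept, so tests refer to these 45 genes.

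RNA from 48 pigs was hybridised to one-colour Cy3 arrays, with 1 array a pig and 12 pigs in each of 4 groups. Pigs aged 132 days came from a line selected for low residual feed intake (RFI, the feed eaten beyond what growth and maintenance predict; RFIneg in the labels) or a line selected for high RFI (RFIpl). Within each line they were fed freely on an HF diet, high in fat and fiber, or an LF diet, low in both and based on starch. Fat, fiber and starch changed together between the diets, so their effects cannot be told apart, and all pigs were castrated male Large White of one labelled age, with one depot sampled, so the groups stand for these lines at that stage. The 48 arrays lay on 6 slides with 2 arrays of each group on every slide. The kept probes well above background numbered 35787 to 38118 per array, and the median correlation of an array with the others of its group was between 0.978 and 0.990.

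The matrix is the network of secreted proteins that surrounds adipocytes, vessels and stromal cells. Fibrillar collagens form the tensile fibers, collagen VI forms beaded filaments close to adipocytes, and collagen IV and laminins build the basement membrane that encloses each adipocyte and each capillary. Fibronectin and matricellular proteins such as periostin link fibers to one another and to cells, and lysyl oxidase cross-links collagen and elastin. In adipose tissue the matrix is laid down mainly by fibroblasts and adipocyte progenitors, and it is remodelled as the depot grows or shrinks.

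The probes are oligonucleotides of 60 bases, and a few are shown here because they make visible what was measured. A collagen triple helix repeats a glycine every 3 residues, so a probe in that stretch holds triplets GGN (any base as N) at steps of 9 bases, and these are in capitals below. The other sequences, in lower case only, come from POSTN, FN1, COL6A2 and COL6A3, the genes on which the diet results turn, and each of the 6 sequences had at least 1 reading frame without a stop codon.
COL1A2 probe O14679: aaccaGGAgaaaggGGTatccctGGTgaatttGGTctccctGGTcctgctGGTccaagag
COL6A3 probe A_72_P233842: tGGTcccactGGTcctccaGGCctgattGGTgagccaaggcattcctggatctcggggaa
COL6A3 probe A_72_P071341: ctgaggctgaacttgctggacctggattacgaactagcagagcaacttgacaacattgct
COL6A2 probe A_72_P267956: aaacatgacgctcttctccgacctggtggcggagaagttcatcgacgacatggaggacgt
FN1 probe O7968: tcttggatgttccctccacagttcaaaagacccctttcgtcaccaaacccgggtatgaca
POSTN probe A_72_P632486: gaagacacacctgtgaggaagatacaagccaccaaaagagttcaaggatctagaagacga
A run of at least 4 such triplets, on either strand, was found in 11 of the 77 probes named for collagen chains, in 0 of the 74 other member probes, and in 0.139% of all 60306 probes on the array.

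Levels are given as log2 signal minus the median of the array over the kept probes, so that a level of 0 is the signal of the median kept probe. Because probes differ in how they bind, levels of different genes were not ranked as amounts of RNA. The 5 brightest members were SPARC, DCN, COL3A1, COL1A1 and BGN, with mean levels in LF pigs of 9.09, 7.67, 7.22, 7.14 and 6.51. Of the 45 tested genes, 41 were well above background on all 48 arrays. The 13 genes without a kept representative included 12 that were dim (median signal between 31.5 and 57.5), among them COL2A1 and LAMA1, which were not well above background on any array. The other was COL8A1, whose brightest probe had a median signal of 1350 (well above background on 48 arrays) but was outside the filtered table. A dimmer COL8A1 probe, A_72_P189126 (median signal 968), was inside that table.

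Between diets, 6 of the 45 matrix genes were higher and 1 was lower in HF pigs, and 38 did not pass the test (limma, raw p under 0.01, fold over 1.1 and Benjamini-Hochberg adjusted p under 0.08 over all kept probes). Over all kept probes, 8.94% were higher and 15.5% were lower, 24.5% in all, while the 7 genes are 15.6% of the 45. The matrix genes that rose were POSTN, FN1, COL6A3, COL6A2 and COL4A2. COL4A3BP, which rose as well, carries a collagen name but encodes a ceramide transfer protein and no matrix protein, and COL5A2 fell. Of the 2 kept COL4A3BP probes, only the brighter was called (0.26, SE 0.07). The dimmer one, O11006, differed by 0.09 (SE 0.05, limma BH p = 0.172). The median difference over the 45 genes was 0.09 (log2), beside -0.02 over all kept probes, and 30 of 45 differences were above 0 (66.7%, beside 43.8% of all kept probes). Many of these genes varied together from pig to pig, so their signs are not independent. In whole tissue, fewer cells of a type and less RNA per cell cannot be told apart.

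**Figure D1:**
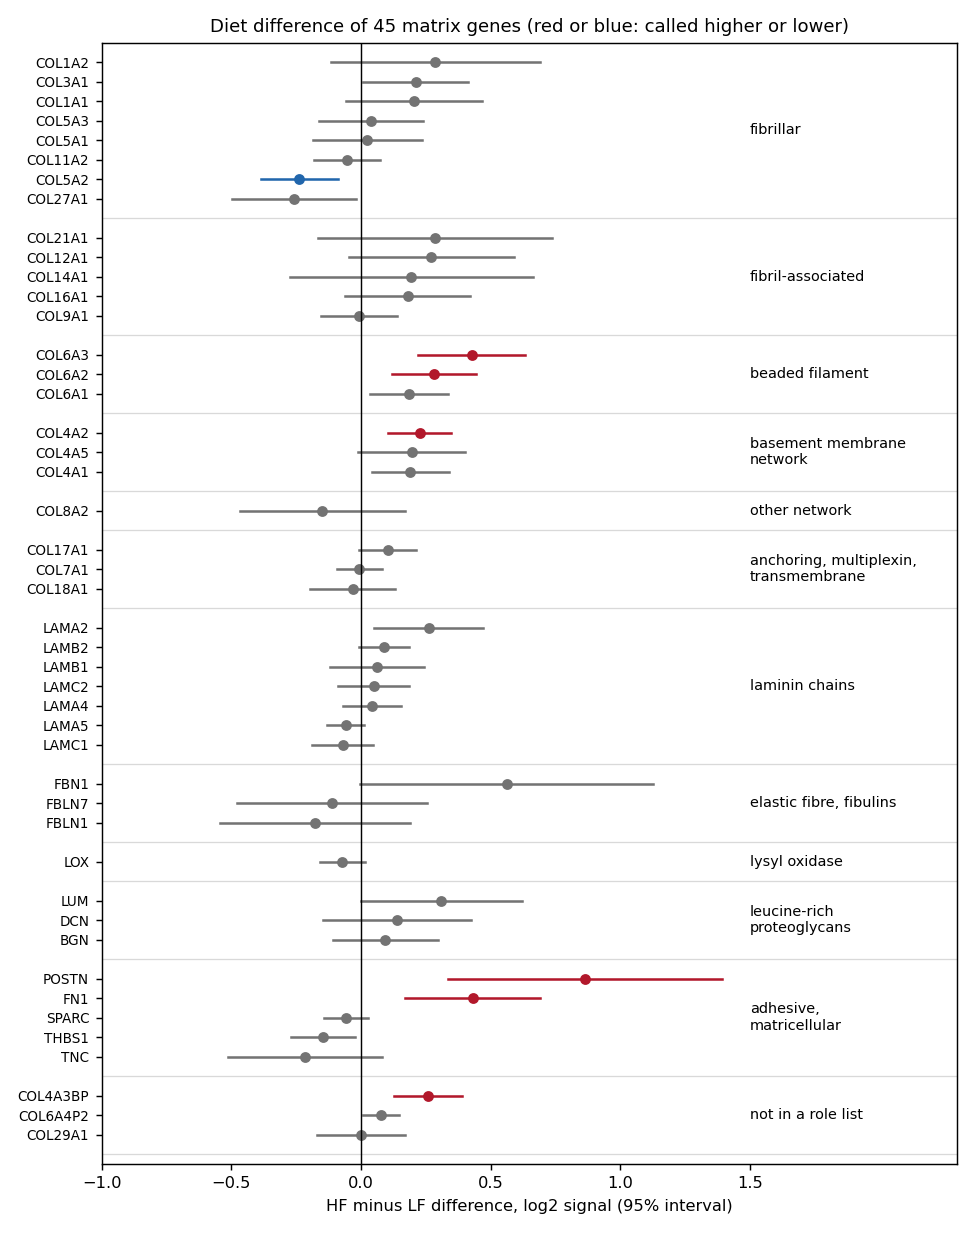
Difference between diets (HF minus LF, log2 signal, x axis) for the 45 tested genes, grouped by the role of the protein, with 95% intervals (24 pigs a diet). The 6 genes in red and COL5A2 in blue passed the test, and POSTN lies farthest from 0 at 0.86.

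Among adhesive and matricellular glycoproteins, 2 of 5 genes rose, 0 fell and 3 did not pass the test. POSTN encodes periostin, which binds collagen and integrins in tissue under repair. Its level (lowest, median and highest of 12 pigs) was 3.0, 4.18 and 5.35 in HF low RFI pigs, 1.76, 3.51 and 5.65 in HF high RFI pigs, 1.03, 3.03 and 4.71 in LF low RFI pigs and 1.07, 3.02 and 4.24 in LF high RFI pigs. The groups overlapped widely, although 20 of the 24 HF pigs exceeded the LF mean. The mean was 3.78 ± 0.93 in HF and 2.91 ± 0.96 in LF pigs (SD, n = 24 each), a difference of 0.86 (SE 0.26, 1.82-fold, limma BH p = 0.0104). All 7 kept POSTN probes were called, with differences between 0.80 and 0.87, but a pair of them shared the same sequence, so they give 6 distinct readings of one transcript.

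FN1 encodes fibronectin, the glycoprotein on which collagen fibers are first assembled. Its level was 4.52, 5.43 and 6.18 in HF low RFI pigs, 4.81, 5.75 and 6.45 in HF high RFI pigs, 4.50, 5.18 and 5.96 in LF low RFI pigs and 4.31, 5.14 and 5.59 in LF high RFI pigs. Diets overlapped, and 6 HF pigs were above every LF pig. The difference was 0.43 (SE 0.13, 1.35-fold, limma BH p = 0.00970), from means of 5.54 ± 0.53 and 5.11 ± 0.38 (SD, n = 24 each). All 4 kept FN1 probes were called, at 0.33 to 0.47. The remaining 3 glycoproteins did not pass. Differences were -0.06 (SE 0.04) for SPARC, a collagen-binding protein, -0.15 (SE 0.06, limma BH p = 0.0609) for THBS1, thrombospondin, and -0.22 (SE 0.15) for TNC, tenascin. The 6 kept THBS1 probes ran from -0.15 to 0.07, with 0 called.

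Collagen VI, the beaded filament collagen, is assembled from 3 chains. Of the 3 genes, COL6A3 and COL6A2 rose and COL6A1 did not pass (66.7% higher, beside 8.94% of all kept probes). The collagen VI symbols COL29A1 and COL6A4P2 were tested and not called, but were not counted in this role. COL6A3 was at 4.20, 5.01 and 5.62 in HF low RFI pigs, 4.79, 5.23 and 5.60 in HF high RFI pigs, 4.05, 4.76 and 5.29 in LF low RFI pigs and 4.13, 4.56 and 5.32 in LF high RFI pigs. HF pigs lay above the LF mean in 21 of 24 cases, and 8 were above every LF pig. The difference was 0.43 (SE 0.10, 1.34-fold, limma BH p = 0.00141), from means of 5.11 ± 0.37 and 4.69 ± 0.37 (SD, n = 24 each). The study names COL6A3 among genes that responded to diet in these same pigs, so this is no independent evidence of its direction.

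COL6A3 had 8 kept probes with 7 distinct sequences, and 7 of the 8 were called. The probe with the highest difference was A_72_P071341 (0.49, SE 0.11), and the one that was not called was A_72_P233842 (0.27, SE 0.10, limma raw p = 0.0139), the COL6A3 sequence with the glycine triplets shown above. Across its probes the gene was thus higher in HF pigs by 0.21 to 0.49.

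COL6A2 was dimmer (median signal 233). Its level was -1.29, -1.01 and -0.67 in HF low RFI pigs, -1.22, -0.69 and -0.27 in HF high RFI pigs, -1.74, -1.13 and -0.83 in LF low RFI pigs and -1.71, -1.23 and -0.73 in LF high RFI pigs. Groups overlapped, with 8 HF pigs above every LF pig and 10 LF pigs below every HF pig. The difference was 0.28 (SE 0.08, 1.21-fold, limma BH p = 0.00699). A second probe with the identical sequence gave 0.31 (SE 0.08), and the other, dimmest probe (median signal 80, O6308) gave 0.02 (SE 0.06), so the call rests on one sequence. COL6A1 differed by 0.18 (SE 0.07), 19 of 24 HF pigs exceeding the LF mean, and missed the raw p threshold (p = 0.0179).

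**Figure D2:**
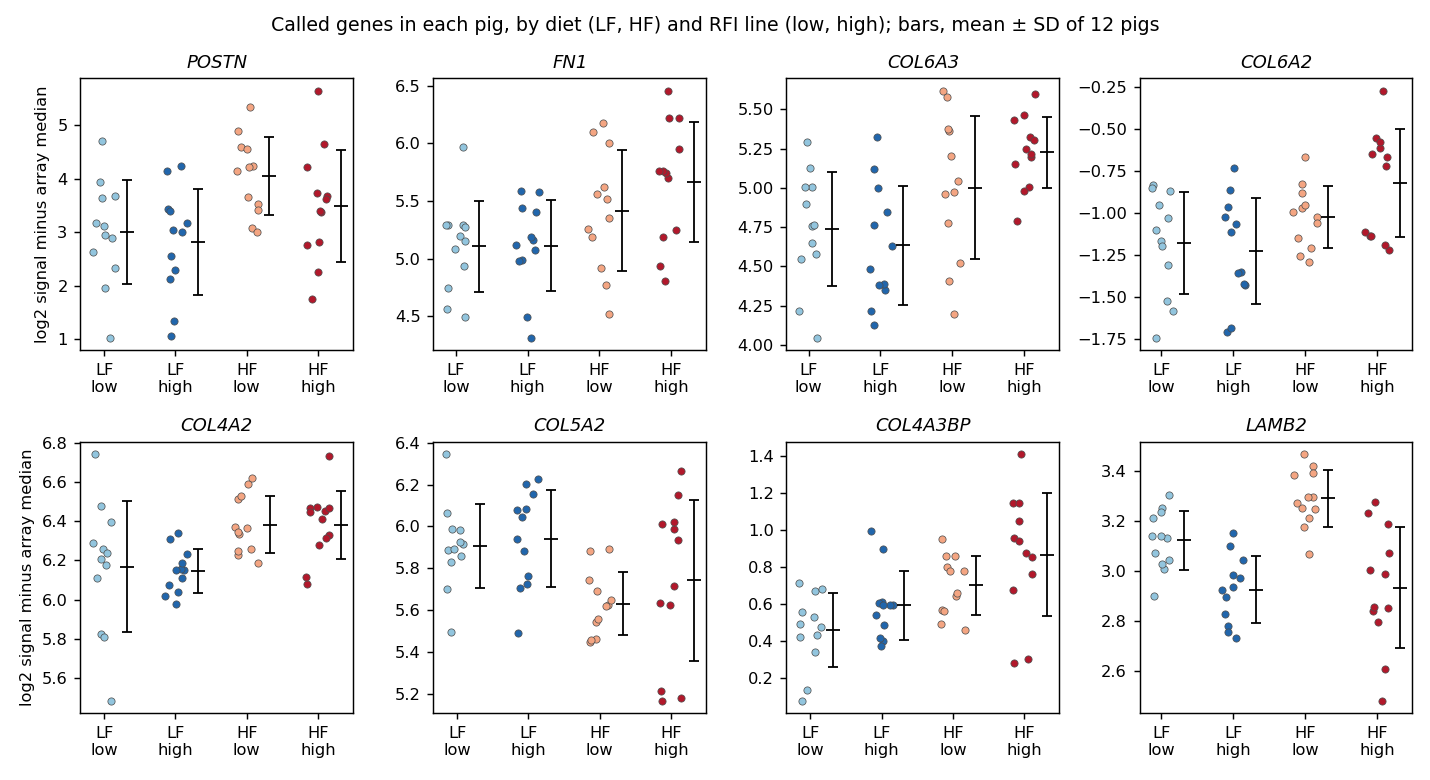
Level of the 7 genes called for diet and of LAMB2, called for line, in each pig (y axis, log2 signal minus array median; x axis, diet and RFI line), with mean ± SD of the 12 pigs of a group. The groups overlap in every panel, and in LAMB2 the low RFI groups lie higher on each diet.

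Of the basement membrane network collagens, 1 of 3 tested genes rose and 2 did not pass. COL4A2, one of the 2 chains of the common collagen IV network, was at 6.19, 6.35 and 6.62 in HF low RFI pigs, 6.08, 6.43 and 6.74 in HF high RFI pigs, 5.48, 6.22 and 6.74 in LF low RFI pigs and 5.98, 6.15 and 6.34 in LF high RFI pigs. HF pigs were above the LF mean in 22 of 24 cases, although the highest pig was on the LF diet. The difference was 0.23 (SE 0.06, 1.17-fold, limma BH p = 0.00389) on the single COL4A2 probe of the table. Its partner chain COL4A1 differed by 0.19 (SE 0.07, raw p = 0.0122) and COL4A5 by 0.20 (SE 0.10), neither of which passed. COL4A3 and COL4A4 had no kept representative, both being well above background on 2 of 48 arrays.

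Laminins, the other large component of basement membranes, gave no diet call among 7 tested chains. Differences were between -0.07 for LAMC1 and 0.26 for LAMA2, with a median of 0.05. A second kept LAMC1 probe lay on the other side of 0 (0.12, SE 0.05, limma raw p = 0.0118) and was not called. LAMA2, a chain of muscle and stromal basement membranes, had the lowest p among the representative laminin probes (0.26, SE 0.10, limma BH p = 0.0514, raw p = 0.0158).

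Fibrillar collagens held the one gene that fell, and 7 of 8 did not pass. The main fiber-forming genes COL1A1, COL1A2 and COL3A1 differed by 0.20 (SE 0.13), 0.29 (SE 0.20) and 0.21 (SE 0.10). Their 95% intervals were -0.06 to 0.47, -0.12 to 0.69 and 0.01 to 0.41, so a rise of the size seen in COL6A3 is not excluded for COL1A1 and COL1A2. COL1A1 lay between 6.80 and 7.97 in HF pigs (median 7.31) and between 5.84 and 7.88 in LF pigs (median 7.08).

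COL5A2, a chain of the collagen that is built into the core of collagen I fibers, was at 5.45, 5.62 and 5.89 in HF low RFI pigs, 5.16, 5.82 and 6.27 in HF high RFI pigs, 5.49, 5.90 and 6.35 in LF low RFI pigs and 5.49, 5.99 and 6.23 in LF high RFI pigs. Only 6 of 24 HF pigs were above the LF mean. The difference was -0.24 (SE 0.07, 1.18-fold lower in HF, limma BH p = 0.0113). This call depended on the probe and on the scaling. The 2 brightest COL5A2 probes gave -0.24 and -0.23, whereas the other 2 gave 0.14 (SE 0.08) and 0.04 (SE 0.08), and the mean over the 4 probes differed by -0.07 (limma BH p = 0.424). With arrays centred on spike-in probes, which moved the median of all kept probes from -0.02 to 0.08, the COL5A2 difference was -0.13 (limma BH p = 0.197). Under that centring 13 matrix genes were called higher and 0 lower (the added ones were COL3A1, COL4A1, COL6A1, COL17A1, COL6A4P2, LAMA2 and LAMB2), and the same centring called 24.5% of all kept probes higher and 4.46% lower, against 8.94% higher and 15.5% lower in the main scaling. With the 75th percentile of the processed signal 10 matrix genes were higher and 1 lower, beside 17.03% and 10.1% of all kept probes. With quantiles of the deposited values 9 were higher and 0 lower, beside 11.9% and 11.9% of all. The counts over all probes moved with these centrings too.

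The fibril-associated collagens, which decorate fiber surfaces, had 0 of 5 calls, with differences from -0.01 to 0.28 and a median of 0.19. The small leucine-rich proteoglycans, which bind collagen fibers and limit their width, had 0 of 3. LUM, lumican, differed by 0.31 (SE 0.15), DCN, decorin, by 0.14 (SE 0.14) and BGN, biglycan, by 0.09 (SE 0.10). Of the 11 kept LUM probes, 1 was called higher (0.18, SE 0.05, probe A_72_P065926), and their differences ran from -0.07 to 0.33. The elastic fibre proteins and fibulins had 0 of 3 calls. FBN1, fibrillin, differed by 0.56 (SE 0.28, limma raw p = 0.0505), and this large value came with the widest spread among pigs of any member. LOX, lysyl oxidase, differed by -0.07 (SE 0.04). The remaining network, anchoring and transmembrane collagens gave 0 calls among 4 tested genes. COL8A1 was not among these, and its kept probe A_72_P189126 differed by 0.03 (SE 0.27). COL29A1, an older symbol of a collagen VI chain, and COL6A4P2, a pseudogene symbol, gave differences of 0.00 (SE 0.08) and 0.08 (SE 0.03) and were not called.

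**Figure D3:**
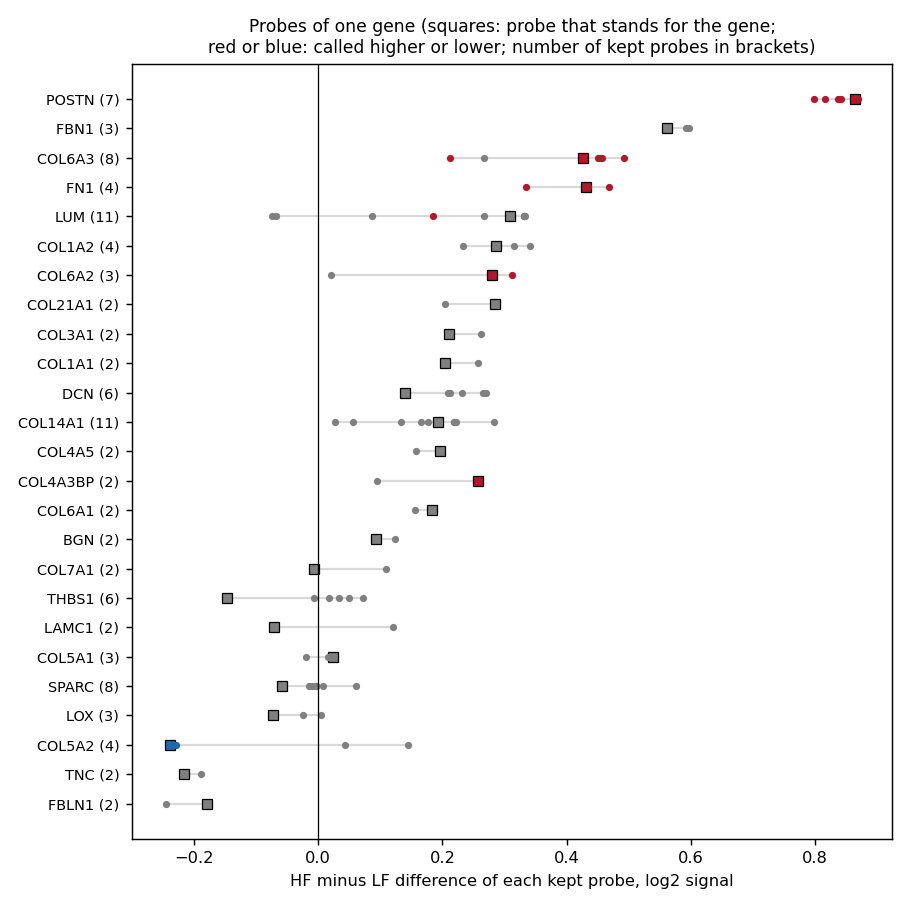
Difference between diets (HF minus LF, log2 signal, x axis) of every kept probe for the 25 genes with 2 or more kept probes, ordered by their median; squares mark the probe that stands for the gene, and red or blue marks a call. The probes of POSTN lie together near 0.8, while those of COL5A2, LUM and THBS1 lie on both sides of 0.

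Probes of one gene lay on both sides of 0 in 8 of the 25 genes with 2 or more kept probes. Over all 124 kept member probes, 23 were called higher and 2 lower in HF pigs, most of them from POSTN, COL6A3 and FN1. Together these were 20.2% of the 124 probes, beside 24.5% of all kept probes (8.94% higher and 15.5% lower).

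The calls were also looked at within technical units. On each of the 6 slides, POSTN, FN1, COL6A3, COL6A2, COL4A2 and COL4A3BP were higher in HF than in LF pigs, and COL5A2 was lower. The slide differences ran from 0.15 to 1.71 in POSTN, 0.26 to 1.05 in FN1, 0.21 to 0.83 in COL6A3 and 0.08 to 0.36 in COL4A2. The 7 genes were called whichever single array was left out.

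Cell type markers were compared between diets too, where 8.94% of all kept probes were called higher and 15.5% lower. Of the macrophage markers, 7 of 10 tested genes were higher in HF pigs and 0 were lower, with a median difference of 0.68. The 3 highest were the complement subunits C1QC (0.81, SE 0.25), C1QA (0.80, SE 0.25) and C1QB (0.76, SE 0.24). The mean level over the 10 markers was between 0.29 and 2.61 in HF pigs and between 0.02 and 2.25 in LF pigs. All 11 tested adipocyte markers were well above background on the 48 arrays. Of these, 0 were higher and 4 lower, with a median of -0.20, the greatest falls being in LEP, leptin (-0.94, SE 0.15), CIDEA (-0.42, SE 0.10) and CIDEC (-0.24, SE 0.07), and their mean level was 6.71 to 7.22 in HF and 6.84 to 7.40 in LF pigs. Of 8 markers of fibroblasts and adipocyte progenitors, 1 was higher (S100A4, 0.41, SE 0.13), with a median of 0.20, and their mean level was 1.57 to 3.0 in HF and 1.27 to 2.96 in LF pigs. Endothelium had 1 of 7 markers higher (CLDN5, 0.30, SE 0.09), T cells 1 of 7 (CD3G, 0.34, SE 0.10), and smooth muscle, skeletal muscle, adrenal cortex and mesothelium 0 of 9, 4, 5 and 4. AQP2, the only tested kidney marker, was lower by 0.63 (SE 0.13), and the kidney markers LRP2, NPHS1 and SLC12A1 were not kept. The part of these cell types in the matrix differences was not tested.

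Genes that act with the matrix were described from lists of known partners. Their counts stand beside 8.94% of all kept probes called higher and 15.5% called lower in HF pigs. Of 16 tested genes that modify, fold or process collagen, 1 was higher and 4 were lower in HF pigs, with a median difference of 0.01. The lower ones included BMP1, which removes the C-terminal propeptide of procollagen (-0.26, SE 0.05, limma BH p = 0.000298), and P4HA1, a subunit of the prolyl hydroxylase that stabilises the triple helix (-0.22, SE 0.07, limma BH p = 0.0206). LEPREL2, of a second family of prolyl hydroxylases, was higher (0.19, SE 0.07, limma BH p = 0.0258). Falls outnumbered rises among the called genes of this list, as they did over all kept probes.

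Among 22 other matrix proteins, EFEMP1, a fibulin family glycoprotein, was higher (0.37, SE 0.13, limma BH p = 0.0207) and VTN, vitronectin, was lower (-0.22, SE 0.06, limma BH p = 0.00907), with a median of 0.08. Of 18 matrix receptors, the integrin subunit ITGB5 was higher (0.24, SE 0.07, limma BH p = 0.00544) and dystroglycan, DAG1, a laminin receptor, was lower (-0.27, SE 0.05, limma BH p = 0.000135). Of 16 gene symbols of transforming growth factor beta signalling (CTGF and CCN2 name the same gene), 2 were higher and 1 lower. These were FST, follistatin, which binds activins (0.59, SE 0.11, limma BH p = 0.000122), the co-receptor TGFBR3 (0.31, SE 0.10, limma BH p = 0.0140) and SMAD3, an intracellular mediator (-0.26, SE 0.07, limma BH p = 0.00520).

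Between lines, 1 of 45 matrix genes was called (2.22%, beside 3.61% of all kept probes, of which 1.81% were higher and 1.81% lower in low RFI pigs). This was LAMB2, the beta chain of laminins found in vessel walls and at nerve and muscle contacts. Its level was 3.07, 3.28 and 3.47 in HF low RFI pigs, 2.90, 3.14 and 3.31 in LF low RFI pigs, 2.48, 2.92 and 3.28 in HF high RFI pigs and 2.73, 2.93 and 3.15 in LF high RFI pigs. Low RFI pigs were above the high RFI mean in 23 of 24 cases, and 7 were above every high RFI pig. The means were 3.21 ± 0.14 and 2.93 ± 0.19 (SD, n = 24 each), a difference of 0.28 (SE 0.05, 1.21-fold, limma BH p = 0.000152). It was above 0 on all 6 slides, from 0.13 to 0.40, and rests on the only LAMB2 probe of the table.

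Within diets the LAMB2 line difference was 0.36 (SE 0.08) in HF pigs and 0.20 (SE 0.06) in LF pigs, and only the former was called when each diet was fitted alone, but the interaction did not pass (raw p = 0.0938). The other laminin chains had line differences of -0.06 to 0.10 and were not called. POSTN had a line difference of 0.38 (SE 0.26, limma BH p = 0.616). Among partner genes, 2 were called for line. MIA3, which exports procollagen from the endoplasmic reticulum, was higher in low RFI pigs (0.30, SE 0.07, limma BH p = 0.00413), and VCAN, versican, was lower (-0.50, SE 0.15, limma BH p = 0.0463). No marker gene of any cell type was called for line.

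The diet by line interaction was called by limma in 0 of 45 matrix genes, and in 0 of all kept probes (0.0%). At an unadjusted p under 0.05 limma gave 1 matrix gene and 867 of all kept probes, and the two-way ANOVA also called 0 matrix genes. That gene was COL8A2, a short-chain network collagen near background (median signal 78.8), whose diet difference was -0.56 (SE 0.29) in the low RFI line and 0.26 (SE 0.11) in the high RFI line (raw p = 0.0133). The LF low RFI pigs were spread from -2.84 to 0.86 with a median of -2.41, and the next pig below the highest was at -0.87. Without the highest pig (replicate 11 of the LF low RFI group) the low RFI difference was -0.29 and the interaction moved from -0.81 to -0.54 (limma raw p = 0.00543, BH p = 1.0).

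Taken line by line, which uses separate pigs for each estimate, the diet difference was above 0 in both lines for 27 of 45 genes and below 0 in both for 10. It was the more positive in high RFI pigs for 33 of 45 genes (55.9% of all kept probes), with medians of 0.06 in the low RFI and 0.14 in the high RFI line. POSTN differed by 1.05 (SE 0.33) in the low RFI and 0.68 (SE 0.39) in the high RFI line, FN1 by 0.31 (SE 0.18) and 0.55 (SE 0.18), COL6A3 by 0.26 (SE 0.16) and 0.59 (SE 0.12), and COL6A2 by 0.16 (SE 0.10) and 0.40 (SE 0.12). COL4A2 differed by 0.22 (SE 0.10) and 0.24 (SE 0.06). In low RFI pigs alone POSTN, COL5A2, COL4A3BP and LAMB2 were called, and in high RFI pigs alone COL6A3, COL6A2, FN1 and COL4A2. As no interaction passed for any of them, these lists do not show that the lines responded differently.

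**Figure D4:**
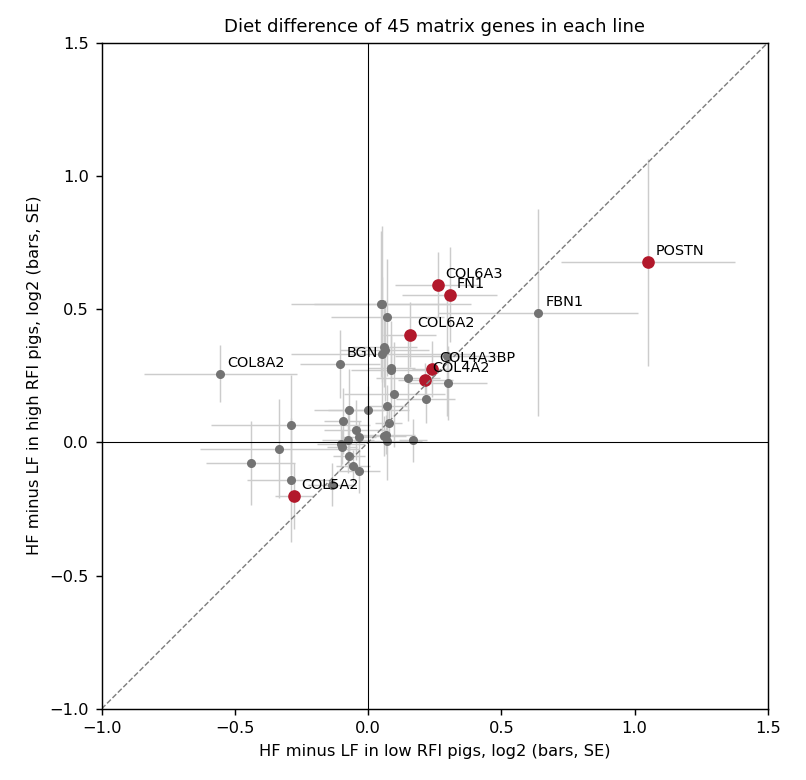
Diet difference (HF minus LF, log2 signal) in low RFI pigs (x axis) against that in high RFI pigs (y axis) for the 45 tested genes, with SE bars and a dashed line of equality (12 pigs a group). The 7 genes called for diet (red) have the same sign in both lines, and 33 of 45 genes lie above the dashed line.

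Pigs of one group differed far more in some matrix genes than in others. The SD within groups was 1.01 in FBN1, 0.94 in POSTN, 0.83 in COL14A1, 0.80 in COL21A1 and 0.72 in COL1A2, and 97.9% of kept probes or more had a smaller one. It was 0.14 in SPARC, 0.14 in LOX, 0.12 in LAMA5 and 0.16 in LAMB2. The SE of a diet difference follows from this spread, and was 0.28 in FBN1 beside 0.06 in COL4A2.

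This spread was shared between genes. After the 4 group means had been taken out, correlations over the 48 pigs were computed for all 990 pairs of the 45 genes, with p-values from 100000 permutations of pigs within groups (two-sided; the smallest p they can give is 1e-05) and BH adjustment over the 990 pairs. Of these pairs, 243 were positive and 64 negative at an adjusted p under 0.05, and the mean r was 0.13, beside 0.02 over all pairs of kept probes. The points share arrays and tissue samples, and genes of one array are not independent.

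A group of stromal collagens and proteoglycans rose and fell together from pig to pig. COL1A1 and COL1A2, the chains of collagen I, had r = 0.947 and a Spearman coefficient of 0.942 (permutation p = 1e-05 for both, adjusted 8.92e-05), and COL14A1 and DCN, both of which bind collagen fibers, had r = 0.957 and a Spearman coefficient of 0.950 (permutation p = 1e-05 for both). Without the 2 pigs farthest from the median, r was 0.946 and 0.951, and with slides removed it was 0.943 and 0.957. COL1A2 was also close to COL3A1 (r = 0.922), COL16A1 (r = 0.918), LUM (r = 0.859) and COL12A1 (r = 0.837).

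The genes called for diet joined this group to differing degrees. With COL1A2, r was 0.776 for COL6A2, 0.720 for FN1, 0.712 for COL6A3 and 0.570 for POSTN (Spearman 0.767, 0.760, 0.711 and 0.590; permutation p at most 4e-05). COL5A2 had r = -0.07 with COL1A2 (Spearman -0.06, permutation p = 0.650) and r = 0.02 with COL5A1, the chain it is assembled with (Spearman 0.01, permutation p = 0.902). These COL5A2 values hold for its brightest probe alone, as its 4 kept probes disagreed between diets (-0.24 to 0.14). COL4A2 ran against the group, with r = -0.478 to COL1A2 (Spearman -0.436, permutation p = 0.00073).

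Among the basement membrane genes, COL4A1, COL4A2 and LAMC1, picked after their values were seen, were negatively related to COL1A2 (r = -0.376, -0.478 and -0.468). LAMC1 was read on its brightest probe, whose diet difference was opposite in sign to that of its second kept probe. COL4A1 and COL4A2 had r = 0.472 (Spearman 0.473, permutation p = 0.00208), COL4A1 and LAMC1 r = 0.521 (Spearman 0.506, permutation p = 0.00028), while COL14A1 and COL4A2 had r = -0.600 (Spearman -0.517, permutation p = 2e-05), or -0.525 without the 2 pigs farthest from the median and -0.685 with slides removed. This did not hold for all basement membrane genes. The 21 laminin pairs ranged from -0.54 to 0.49 with a mean r of 0.01, and LAMA2 was positively related to COL1A2 (r = 0.477, Spearman 0.483, permutation p = 0.00075). COL4A2 and COL6A3 were both higher on the HF diet, while within groups pigs with more COL14A1 had less COL4A2.

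**Figure D5:**
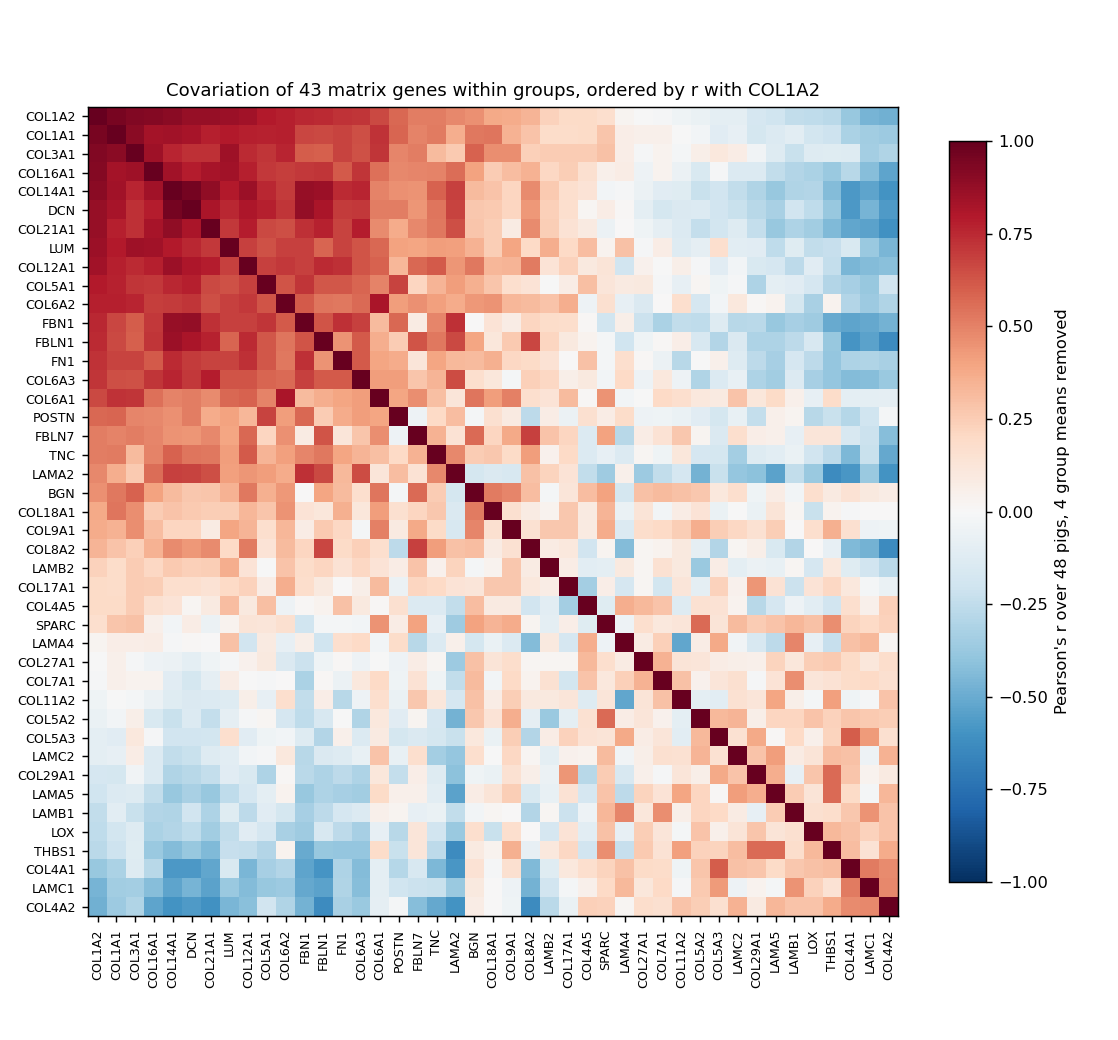
Pearson's r between 43 matrix genes (both axes; COL4A3BP and COL6A4P2 left out) over 48 pigs after removal of the 4 group means, ordered by r with COL1A2; red is positive and blue negative. A red block of fibrillar and fibril-associated collagens, DCN, LUM, FBN1 and FN1 stands at the upper left, and COL4A1, COL4A2 and LAMC1 at the lower right are blue against it.

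The mean levels of the marker lists varied along with the same genes (450 relations, BH over these). With the fibroblast and progenitor markers, 20 of 45 matrix genes were positively and 6 negatively related at an adjusted p under 0.05, from r = 0.936 for FBN1 to r = -0.589 for COL4A1. This list holds MFAP5, a matrix protein that was also counted among the other matrix proteins. Part of these relations is thus between matrix genes. With macrophage markers these counts were 19 and 6, from r = 0.796 for DCN to r = -0.581 for COL4A2. With adipocyte markers they were 10 and 15, from r = 0.625 for LAMC1 to r = -0.644 for FBLN1, and with endothelial markers 4 and 9, from r = 0.575 for COL4A2 to r = -0.533 for FBN1. With mesothelial markers they were 10 and 7, from r = 0.701 for LAMA2 to r = -0.730 for COL4A1. The kidney list, of which AQP2 alone was kept, gave 12 and 2, from r = 0.721 for THBS1 to r = -0.542 for LAMA2, and adrenal cortex markers 8 and 5, from r = 0.629 for THBS1 to r = -0.672 for LAMA2. The THBS1 values hold for its brightest probe alone. Its 6 kept probes ran from -0.15 to 0.07 between diets and from 0.01 to 0.30 between lines. Skeletal muscle markers gave 8 and 0 (highest r = 0.586 for COL17A1), smooth muscle and pericyte markers 3 and 0 (highest r = 0.4997 for BGN) and T cell markers 0 and 1 (r = -0.404 for POSTN). Spearman's coefficient was 0.928 for FBN1 with the fibroblast list, 0.803 for DCN with the macrophage list and -0.613 for FBLN1 with the adipocyte list (permutation p at most 4e-05), and without the 2 pigs farthest from the median r was 0.923, 0.757 and -0.582. Whether cell number, tissue sampling or expression per cell moved with these genes was not tested.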

How the data were processed

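PRAT RNA of 48 pigs (12 in each diet and line group, grouped by the labels) was measured on one-colour arrays. Spot intensity values (median signal 382 to 638 per array) and flags of 0 or 1 were made with Feature Extraction 10.7.3.1, per the file headers, and deposited without normalization between arrays. The authors filtered spots, log2-transformed the signal and subtracted the array median (R 2.10.0 is named in their processing notes), and these log2 values were deposited for 38142 probes. Names in that table equalled those of the spot holding the same values (tolerance 1e-06) in 2 entries, so each entry was named after its matched spot. Precision is limited by the number of arrays. The genome build is not given in the sources used here, and no coordinates are given.

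Diet, line and interaction were fitted over all kept probes by lmFit and eBayes of limma 3.58.1 (R 4.3.3). A call needed a raw p under 0.01, a fold change above 1.1 and a BH p under 0.08, the thresholds of the study, whose two-way ANOVA was an alternative. On simulated data with 200 probes changed by 0.5 (log2) in the diet comparison over 38142 probes, 187 were recovered and 18 others called. The simulated noise was independent between probes, and far fewer probes were changed than were called in the data. A change of 0.5 is also larger than every called member difference except that of POSTN. These counts thus do not give the recovery of smaller changes or of the most variable matrix genes. Intervals are 95%. Nothing in the labels ties pigs to litters or pens, so shared litters or pens could not be checked. The p-values treat the pigs as independent.

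Genes named in full were the members called for diet or line, the 5 brightest, COL6A3, and symbols the name rule takes that are no matrix genes; of partner and marker lists, up to 3 called genes each. Others named by role, and pairs in correlations, were chosen after their values were seen. The members and lists were chosen with earlier results of these data known. Of 58 genes, those whose representative probe was outside the filtered table were not tested. Correlations used group-centred values, and alternatives are given in the closing section. Subcutaneous fat was not analysed here. Python 3.11.15, numpy 2.4.6, pandas 2.3.3, scipy 1.17.1 and matplotlib 3.10.9 were used.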

Additional observations from a re-analysis of the deposited data

Results flagged for a closer look

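The authors' filtered table left out 27 of the 151 member probes, and 6 of these were well above background on all 48 arrays, where negative control spots had a median signal of 29. They carry a signal that the comparisons of the report did not use, and are given here as values fitted with limma over all probes without the filter. POSTN probe A_72_P650581 (median signal 1971) differed by 0.87 between diets (HF minus LF, log2, BH p = 0.0216), beside 0.80 to 0.87 for the 7 kept POSTN probes. COL8A1 had 2 such probes, O4185 (median signal 1350) with a difference of 0.020 and A_72_P414108 with 0.12. LAMA4 probe O11053 differed by 0.074, COL7A1 probe A_72_P664371 by 0.17 and COL21A1 probe O8400 by 0.049, and these 5 had BH p-values between 0.0778 and 0.968. The reason for leaving out these probes was not tested.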

How the results depend on the processing

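COL6A3, COL6A2, FN1, POSTN, COL4A2 and COL4A3BP kept their sign and their call under every other scaling, filter, block and weight tried (fold threshold of 1.5 and single lines aside), COL5A2 did not, and LAMB2 did for line. The 7 diet calls (24.5% of all kept probes) became 11 with the 75th percentile of the processed signal (27.1% of all) and 13 with spike-in centring (28.9% of all), and 1 (POSTN) with a fold over 1.5, at which the line call became 0. Alone, low RFI pigs gave 4 diet calls (13.5% of all probes) and high RFI pigs 4 (13.9%). The line gave 2 calls (LAMB2 and BGN) in HF pigs (1.15% of all probes) and 0 in LF pigs (0.33%). For COL5A2, BH p rose above the thresholds or the raw p missed them with quantiles of the deposited values (-0.15), normexp and quantiles (-0.16), spike-in centring (-0.13) and the mean of its probes (-0.07). The causes were not tested. Chosen after seeing the data, leaving out each array in turn gave 7 to 9 diet calls, 1 line call and 0 interaction calls, and leaving out COL4A3BP and COL6A4P2 gave 6, 1 and 0. The interaction had 0 calls under all 16 alternatives run for it. Dim probes limit what can be said of the 12 genes near background.

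With the replicate number as a block there were 9 diet calls (COL4A1 and THBS1 were added), beside 26.7% of all kept probes. There were 1 line call (4.82% of all) and 0 interaction calls, so no call was lost. Deviations of same-numbered pigs from different groups correlated above 0.1 in 38 of 72 pairs (-0.27 to 0.52, median 0.12), against 30 of 72 pairs on the same slide with another number (median 0.06) and 178 of 720 on other slides (median -0.02). Same-number pairs thus had the highest median, but the labels do not say what the numbers stand for. These values do not settle whether the numbers pair the pigs, and the main fit did not use them as pairs.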
